A study of Triticum aestivum with 18 samples.

Results

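Transcript levels in the root apices of aluminium-treated seedlings were compared between the wheat-rye addition lines 3R and 6R. The comparison used 6 of the 18 samples of the study: the 3 samples of line 3R and the 3 samples of line 6R that had received Al, picked by their titles. An addition line is bred to carry the complete genome of bread wheat (Triticum aestivum) plus 1 pair of rye (Secale cereale) chromosomes, here 3R or 6R. Whether these lines still held all of the wheat genome was not tested here. Seedlings grew in nutrient solution at low pH, and the Al groups spent the last 24 h in the same solution with 200 µM AlCl3. The control groups, used beside the main comparison, spent that time without Al. All were harvested at 5 days of age. Chinese Spring (CS), the wheat parent without either rye pair, was grown in the same ways, with 3 samples each with and without Al. Each sample pooled 9 root tips of 1 cm, and the labels call the 3 samples of a group biological replicates. They do not say whether the tips came from separate cultures, so p-values measure the spread between these pools. Each rye pair is represented by 1 line, so the pair cannot be told apart from any other difference that the line carries.

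Aluminium dissolves as a toxic ion in acid soil and stops the growth of the root apex. In wheat the best known defence is the release of malate from the apex, which binds Al outside the cell. Rye tolerates Al better than the other small-grain cereals, and loci for this trait have been mapped to several of its chromosomes, 3R and 6R among them. The probes were annotated as wheat sequences, and transcripts of the wheat and rye copies of a gene were not told apart here. None of the gene symbols used here names an ALMT or MATE transporter, the families that release malate and citrate, and these genes were not analysed here.

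Under Al, line 3R differed from line 6R chiefly through transcripts that were lower in 3R. Of 45220 probe rows, 1617 (3.58%) passed the test, which means an adjusted p under 0.05 in limma. Of these, 385 (0.851%) were higher in 3R and 1232 (2.72%) were higher in 6R, so 23.8% of the calls went towards 3R. The median difference of the called rows was 1.27 on the log2 scale for those higher in 3R and -1.30 for those higher in 6R. A difference of at least 1 log2 unit was found in 278 rows higher in 3R and 885 higher in 6R, and one of at least 3 log2 units in 12 and 113. The 3 samples of one line did not overlap those of the other in 336 and 1164 of the called rows. Overlap was judged here and below without regard to the dye that labelled each sample. Over all rows, groups did not overlap in 14.8%, with 4.77% higher in 3R and 10% higher in 6R, and 13.9% had an unadjusted p under 0.05.

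The deposited values of the lines had been scaled apart, with medians of 7.09 in 3R, 7.22 in 6R and 7.33 in CS. After quantile normalization across all 18 samples, 1361 rows (3.01%) were called, 531 (1.17%) higher in 3R and 830 (1.84%) higher in 6R. The share of calls towards 3R was then 39.0%, and with each sample centred on its median it was 41.9%. Centring moved the median difference of all rows from -0.03 to 0.10 on the log2 scale. Sorted values of 3R and 6R differed by at most 0.18, which is small beside the median called differences, so few signs could change. All 1617 rows kept their sign after the quantile normalization, and 1206 of them stayed called in the same direction, 376 higher in 3R and 830 higher in 6R. The excess of rows higher in 6R therefore held on all 3 scales, with a size that depended on the scale.

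**Figure D1:**
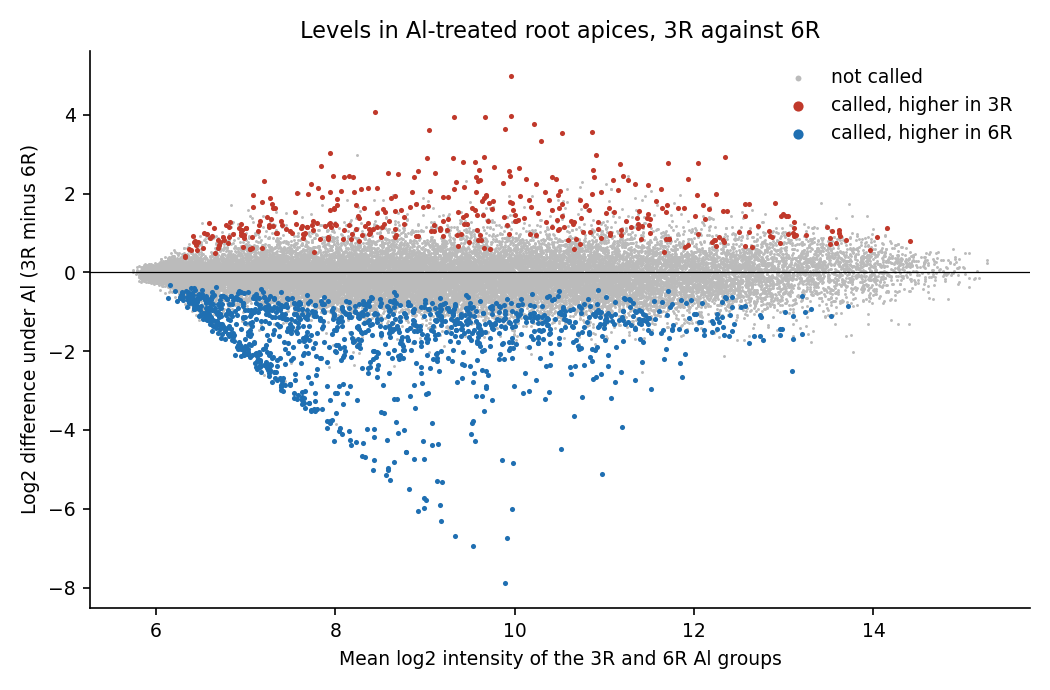
Difference of log2 intensity between the Al-treated samples of 3R and 6R for each of 45220 probe rows (vertical axis) against the mean log2 intensity of both groups (horizontal axis). Red points are the 385 rows called higher in 3R and blue points the 1232 called higher in 6R; the blue points along the lower left edge are rows at the array's floor in 3R.

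The strongest differences were transcripts that gave no signal above the floor of the array in 3R. The lowest log2 value in the table was 5.62, and a group mean under 6.3 is called near the floor here. In 3R under Al, 39.4% of all rows were near the floor, and in 6R 37.9% were. Of the 1232 rows higher in 6R, 305 were near the floor in 3R, and 298 of these were near it without Al as well. Of the 385 rows higher in 3R, 26 were near the floor in 6R, 18 of them in both conditions. With a mean of at least 8 asked of the brighter line, 125 rows were near the floor in 3R and 3 in 6R. For 92 of the 125 the pattern was the same with and without Al, with median levels under Al of 6.03 in 3R, 9.19 in 6R and 9.26 in CS. CS, which lacks both rye pairs, lay nearer to 6R in all 92 rows. None of the 125 rows carried a gene symbol. The gene LOC543362, described below, had the same pattern but missed the cut, with 7.996 in 6R under Al. Near the floor a log2 difference understates the true one.

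Probe row 35044 was the extreme case. Its log2 levels under Al were 6.00, 5.91 and 5.95 in 3R, against 12.88, 14.38 and 14.22 in 6R and 14.05, 12.89 and 14.09 in CS. It was at the floor in every 3R sample and bright in every 6R and CS sample, with a difference of -7.87 ± 0.51 (SE; limma adjusted p = 2.5e-06). Row 668 showed the same arrangement at 6.06 ± 0.07 in 3R, 13.01 ± 0.46 in 6R and 12.93 ± 1.62 in CS (SD, n = 3). The opposite case was row 29901, whose levels under Al were 11.21, 10.25 and 9.98 in 3R and 6.18, 6.28 and 6.73 in 6R. Here 6R stood apart, since CS was at 10.68 ± 0.48 (SD, n = 3), and the difference of 4.08 ± 0.26 was joined by one of 3.88 without Al. None of these rows has a gene name in the annotation.

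The level under Al is the level without Al plus the response to Al, so each called row was set beside both. Without Al, 555 rows (1.23%) were called between the lines, 66 (0.146%) higher in 3R and 489 (1.08%) higher in 6R. The response to Al differed between the lines in 492 rows (1.09%), of which 310 (0.686%) had the higher value in 3R and 182 (0.402%) in 6R. Rows higher in 6R under Al were also called without Al in 428 of 1232 cases, which is 34.7% of that list and 87.5% of the control list of the same direction. Their response difference was called in the same direction in 133 and in the opposite direction in 7. Rows higher in 3R were called without Al in 49 of 385 cases, 12.7% of that list and 74.2% of the control list, and their response difference was called in 145. For 691 rows higher in 6R and 192 higher in 3R, neither component passed alone. The count of response differences was unstable: it fell to 86 without 3R replicate 1, 93 without 3R replicate 3, 200 without 6R replicate 1, 216 without 6R replicate 2 and 229 without 3R replicate 2. The kinds of rows below that rest on it share this limit. Here and below, a replicate was left out as a whole array, with its Al and its control sample. These components share samples with the main comparison, so the counts describe the lists and are not separate evidence.

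**Figure D2:**
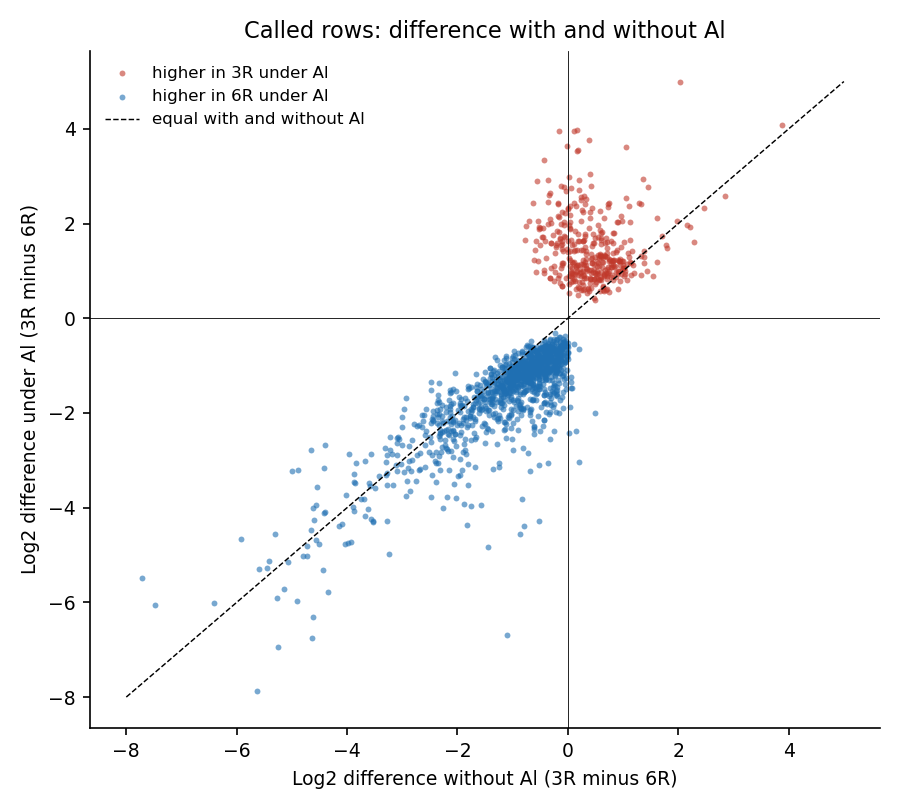
Difference of log2 level between 3R and 6R under Al (vertical axis) against the same difference without Al (horizontal axis) for the 1617 called rows; the dashed line marks equal differences. Rows higher in 6R (blue, 1232) had median differences of -1.30 under Al and -0.82 without Al. Rows higher in 3R (red, 385) had 1.27 and 0.39. The rows were picked by their difference under Al, and by these medians both groups lie off the line.

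Both components passed for 20 rows higher in 6R and 1 higher in 3R, and the rows with a single called component fell into 4 kinds. In 408 rows the transcript was higher in 6R with and without Al and the response difference was not called in that direction, with median levels of 6.65 without and 6.62 with Al in 3R, and of 9.32 and 9.41 in 6R. CS stood at 9.54 and 9.47. In 113 rows the response difference was called and the difference without Al was not. Their medians without Al were 6.78 in 3R and 7.28 in 6R, and they reached 7.67 in 3R and 9.59 in 6R under Al. Of these 113 rows, 67 rose under Al in 3R and 110 rose in 6R, where 7.71% and 13.7% of all rows rose. In 144 rows higher in 3R by the response alone the medians without Al were 11.92 in 3R, 11.85 in 6R and 11.98 in CS. Under Al they were 10.83 in 3R, 8.71 in 6R and 8.78 in CS. These were abundant transcripts that fell under Al in 102 rows in 3R and 140 in 6R, where 7.19% and 13.3% of all rows fell. The 113 and 144 rows were picked by a called response difference, so these counts follow in part from that choice. In the remaining kind, 48 rows were higher in 3R with and without Al, at 8.37 and 8.29 in 3R and 7.06 and 6.90 in 6R.

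**Figure D3:**
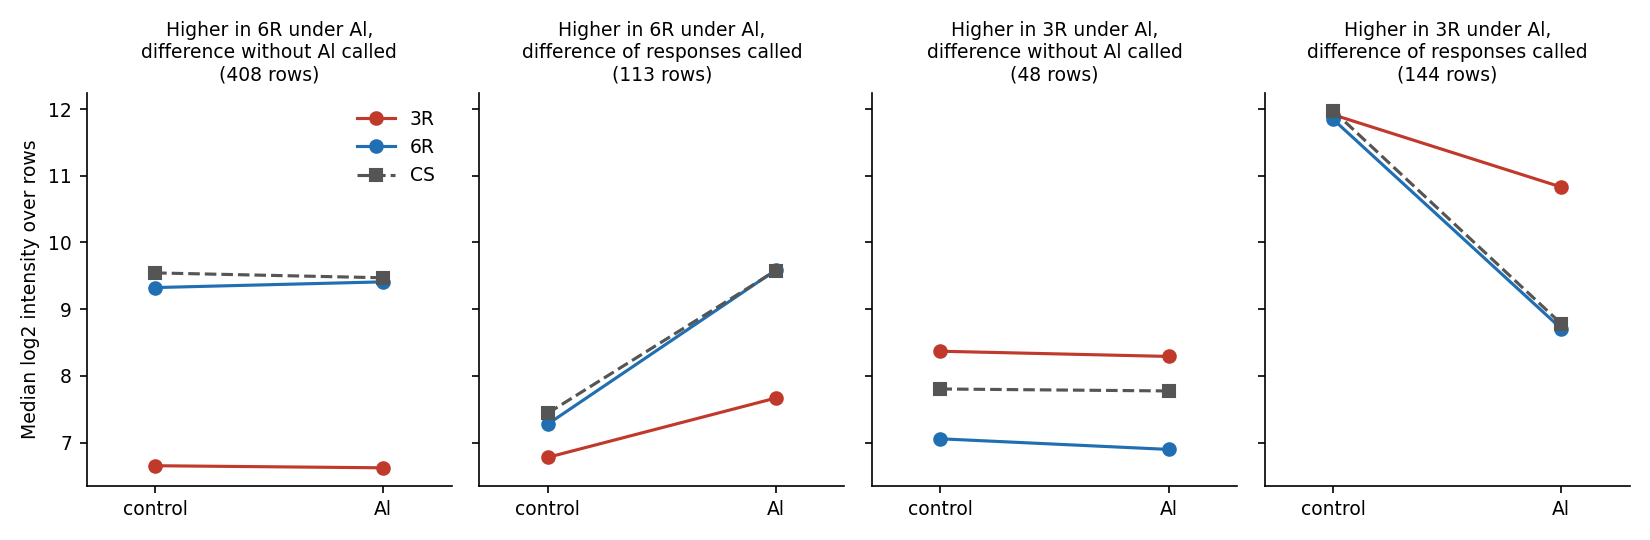
Median log2 intensity without and with Al in 3R, 6R and CS for the 4 kinds of called rows (408, 113, 48 and 144 rows). In the 113 and 144 rows whose responses differed, the lines for 6R and CS run together and 3R moves less, to 7.67 upwards and 10.83 downwards.

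CS was nearer to 6R than to 3R in most called rows of both directions. Under Al its mean lay nearer to 6R in 304 of 385 rows higher in 3R (79.0%) and in 1095 of 1232 rows higher in 6R (88.9%). After the quantile normalization across all samples the counts for the same rows were 345 and 997. On a scale that sets 6R at 0 and 3R at 1, the median position of CS was 0.19 for rows higher in 3R and 0.02 for rows higher in 6R. This is a description without a test. The slides, as read from the prefix of the scanner file names, held replicates 1 and 2 of 3R and 6R together and those of CS apart, with replicate 3 of all lines on another.

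**Figure D4:**
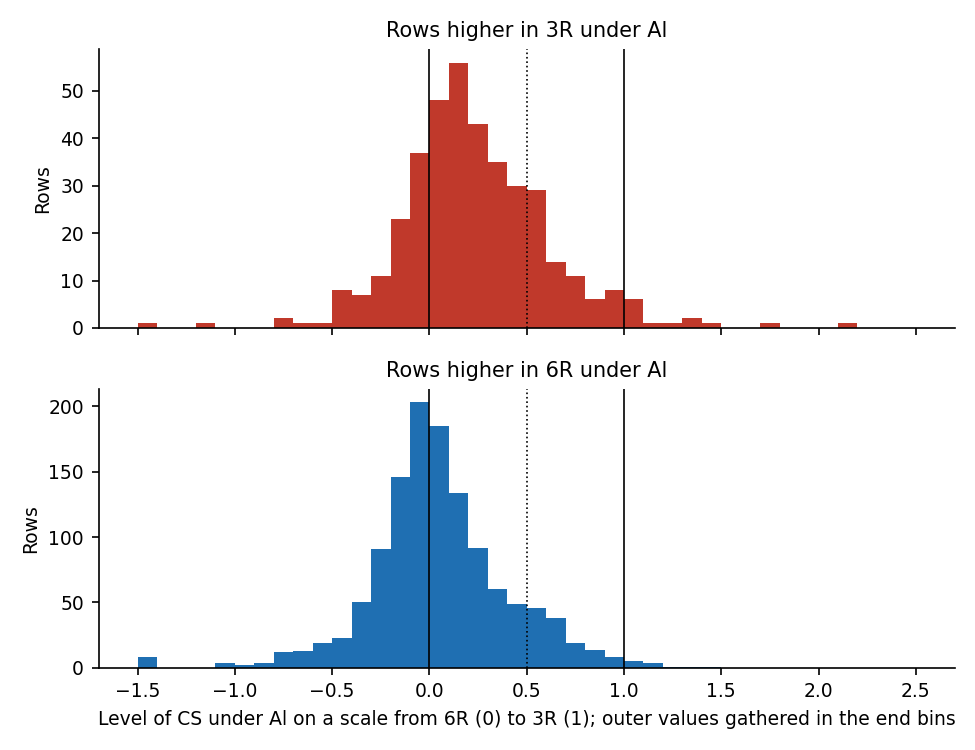
Number of called rows (vertical axes) by the level of CS under Al, on a scale where the 6R mean is 0 and the 3R mean is 1 (horizontal axis). Both histograms are centred close to 6R, with medians of 0.19 for the 385 rows higher in 3R and 0.02 for the 1232 rows higher in 6R.

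Gene names were few. Of the 45220 rows, 996 carried a gene symbol and 280 a descriptive one, and most of the rows that differed had none. Of the 996, 31 were called (3.11%), 15 higher in 3R and 16 higher in 6R. Of the 280, 4 were called (1.43%), 2 in each direction. Over all rows the share was 3.58%. At these shares short gene lists hold few or no calls, so the list counts below do not speak for a gene family. The genes below are those 4, the genes next to the threshold, and, in each direction, the 4 called LOC symbols of largest difference whose groups did not overlap, for which no role is given. Each level call of these genes is given with how many of 17 alternative settings, described with the processing, kept it.

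U2AF65a, the large subunit of the U2AF factor that recognises the end of an intron for splicing, was lower in 3R. Its log2 levels under Al were 7.17, 7.74 and 7.23 in 3R and 8.99, 8.0 and 8.71 in 6R. All 6R samples were above all 3R samples, and the difference was -1.19 ± 0.20 (SE; limma adjusted p = 0.0037), or 2.28-fold. CS was at 8.49 ± 0.45 (SD, n = 3). The gene rose under Al in both lines, by 0.56 in 3R (adjusted p = 0.013) and 1.35 in 6R (adjusted p = 1.1e-04), and the response difference of -0.79 missed the threshold (adjusted p = 0.066). The call held with any single replicate left out and in 15 of 17 alternatives. It was lost without the dye term (adjusted p = 0.094) or with the 6 Al samples alone (adjusted p = 0.11). Its relative U2AF65, measured by 3 probes, was not called, and neither were the other splicing and translation factors. That list had 1 called probe of 15, where 3.58% of all rows were called. Its median difference was -0.10, beside a median of -0.03 over all rows.

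SH6.2, listed as SAHH in RefSeq and encoding the adenosylhomocysteinase that recycles the by-product of methylation reactions, was higher in 3R by 1 of its 9 probes. That probe read 14.30, 13.64 and 14.36 in 3R and 12.83, 13.52 and 13.49 in 6R under Al. The groups did not overlap, though the lowest 3R sample was only slightly above the highest 6R sample, and the difference was 0.82 ± 0.16 (limma adjusted p = 0.012). Without 3R replicate 1, 3R replicate 3 or 6R replicate 1 the call was lost, with adjusted p of 0.079, 0.055 and 0.070. It was also lost without the dye term (0.087), with an intensity trend (0.086) and with dim rows left out (0.051), and held in 11 of 17 alternatives. All 9 probes had positive differences, from 0.04 to 1.14. In the list of the methyl cycle and methyltransferases, this was the only call among 21 probes, where 3.58% of all rows were called. The list had a median difference of 0.17. SAMS, which makes the methyl donor S-adenosylmethionine, gave -0.41 ± 0.24 (adjusted p = 0.54) at its best probe, and the phosphoethanolamine methyltransferase WPEAMT gave 0.67 ± 0.45 (adjusted p = 0.63).

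The called dehydrin, rab, was low in both lines. This ABA-responsive protein belongs to a family that protects cells during water loss. Its probe read 6.24, 6.40 and 6.16 in 3R and 6.80, 6.75 and 7.31 in 6R, without overlap, and 10.45, 10.72 and 10.71 in CS. In 3R it was near the floor and in 6R just above it, while CS was far higher under Al; without Al CS was at 6.98 ± 0.17 (SD, n = 3). The difference of -0.68 ± 0.16 (limma adjusted p = 0.028) was not called after the quantile normalization across samples (adjusted p = 0.056). It was also lost without 3R replicate 1, 2 or 3, with adjusted p of 0.12, 0.074 and 0.14, and held in 8 of 17 alternatives. It measured -0.45 on the slide with replicates 1 and 2 and -1.15 on the slide with replicate 3. The other rab probe lay at the floor in both lines, at 5.98 and 5.96. LEA1, of the related late embryogenesis abundant proteins, gave -0.58 ± 0.15 and missed the threshold (adjusted p = 0.054). It was called in 1 of 17 alternatives. The dehydrin and LEA list had a median of -0.06 and 1 called probe of 10, where 3.58% of all rows were called.

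PDI, the protein disulphide isomerase that helps secreted proteins fold, was called higher in 3R although the groups overlapped. Its probe read 13.24, 13.62 and 13.14 in 3R and 13.22, 12.14 and 12.40 in 6R. The highest 6R sample lay within the 3R range. That sample carried Hyper 5, as did the highest 3R sample, and the others carried Cy3. The difference of 0.74 ± 0.19 had a limma adjusted p of 0.045, and 0.090 after the quantile normalization across samples. Leaving out any replicate but 3R replicate 2 ended the call, with adjusted p from 0.085 to 0.20. So did most other alternatives, up to 0.66 without the dye term, and the call held in 5 of 17. A second PDI probe gave -0.25. The chaperone list had a median of -0.17 and this 1 call among 8 probes, where 3.58% of all rows were called. The small heat shock protein hsp16.9A gave -0.69 ± 0.29 (adjusted p = 0.29).

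**Figure D5:**
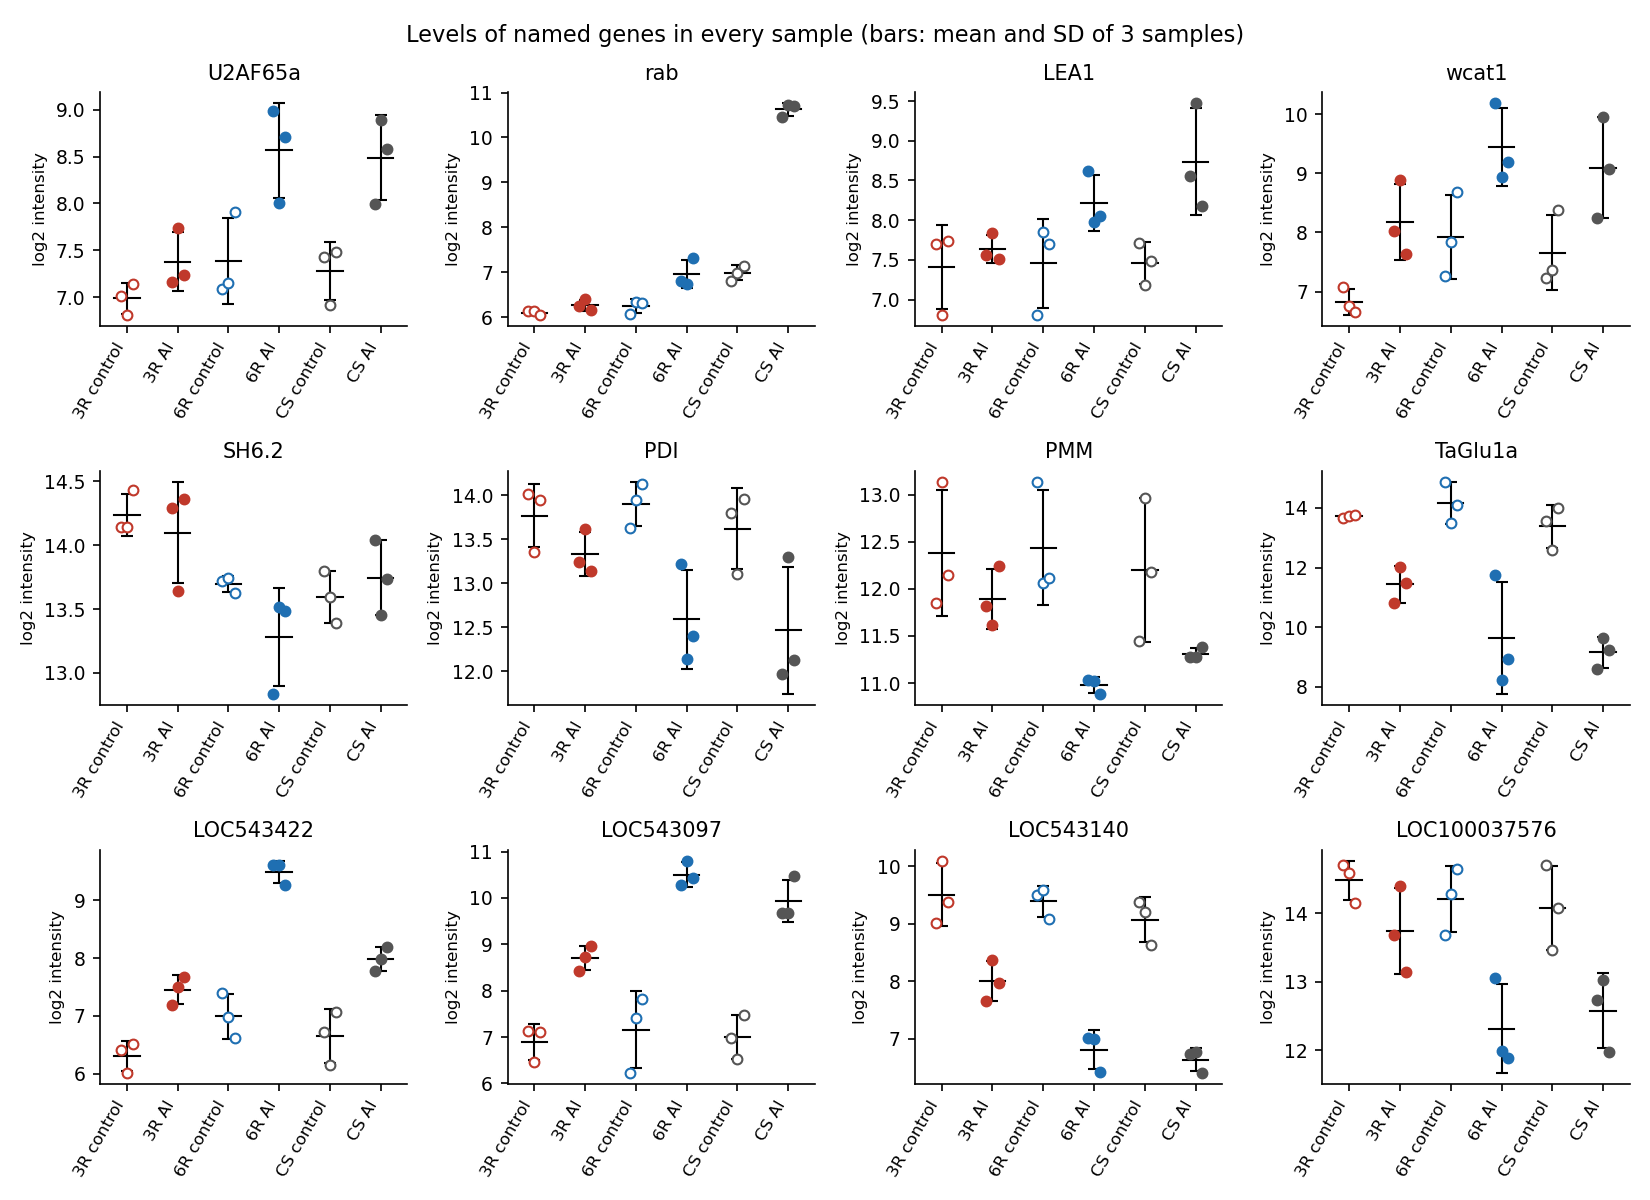
Log2 intensity of 12 named probes in each sample, without Al (open circles) and with Al (filled circles), in 3R, 6R and CS; bars are the mean and SD of 3 samples. U2AF65a is higher in all 6R samples than in all 3R samples under Al, rab is high only in CS under Al (10.45 to 10.72), and TaGlu1a has 1 high 6R sample at 11.76.

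The beta-glucosidases TaGlu1a and Taglu1b release the active form of benzoxazinoids, the defence compounds that cereals store as glucosides. All 5 of their probes were higher in 3R under Al, by 1.49 to 2.45 with a median of 1.97, and none passed the test of levels. The TaGlu1a probe of smallest p read 10.81, 12.03 and 11.47 in 3R and 11.76, 8.22 and 8.93 in 6R. In 6R, replicate 1 stood within the 3R range and the other samples were far below it. The difference of 1.80 ± 0.54 was not called (limma adjusted p = 0.099). Without 6R replicate 1, which was labelled with the other dye than replicates 2 and 3, it was 2.63 and called (adjusted p = 0.0021). Over all alternatives the level difference was called in 3 of 17. The within-array response fell by 2.01 in 3R (adjusted p = 6.2e-04) and fell by 4.25 in 6R (adjusted p = 1.0e-05). The response difference was called in 5 of the 5 probes, where 1.09% of all rows were called. With single replicates left out it held in all 6 cases for 1 of these probes and in 1 to 4 cases for the others. Each of the others lost the call without 3R replicate 1 or 6R replicate 2 (adjusted p up to 0.15). CS stood at 9.16 ± 0.52 (SD, n = 3) under Al.

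Genes of redox balance and metal binding did not pass the test. Catalase, wcat1, gave levels of 8.02, 8.89 and 7.64 in 3R and 10.20, 8.94 and 9.20 in 6R, which did not overlap, with a difference of -1.26 ± 0.32 (limma adjusted p = 0.053). It was called in 2 of 17 alternatives. The gene rose under Al in both lines, by 1.64 in 3R (adjusted p = 8.2e-04) and 1.80 in 6R (adjusted p = 2.2e-04), and the difference without Al was -1.10 (adjusted p = 0.21). PCS1, the phytochelatin synthase that makes metal-binding peptides, gave -0.81 ± 0.23 (adjusted p = 0.076). Without 6R replicate 3 it was -1.05 and called (adjusted p = 0.030), and over all alternatives it was called in 2 of 17. The Al-induced gene wali1 read 14.69 ± 0.65 in 3R and 13.59 ± 0.48 in 6R (SD, n = 3) at the best of its 3 probes. Its difference there was 1.10 ± 0.39 (adjusted p = 0.18). The antioxidant list had 0 calls of 7 probes and the metal chelation list 0 of 7, where 3.58% of all rows were called.

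Genes of sugar metabolism and gibberellin synthesis were likewise not called. Phosphomannomutase, PMM, which feeds the synthesis of ascorbate and cell wall sugars, read 11.82, 11.62 and 12.25 in 3R and 11.03, 11.02 and 10.88 in 6R. The groups did not overlap, and the difference was 0.91 ± 0.26 (limma adjusted p = 0.082). It was called in 3 of 17 alternatives. The starch and sugar list had a median of 0.25 and 0 calls of 24 probes, where 3.58% of all rows were called. The 5 probes of gibberellin 20-oxidases and the 3-oxidase GA3ox2-2 had a median of 0.30 and 0 calls; their levels under Al were close to the floor, up to 6.80 in 3R and 6.63 in 6R. The genes often used as references, tubulins and the elongation factor TEF1, had a positive difference in 15 of 20 probes, against 19008 of all 45220 rows, with a median of 0.37 and 0 calls. These probes, of 6 genes, were bright, with mean levels under Al of 13.2 in 3R and 12.9 in 6R. All rows with a mean level above 12 had a median difference of 0.02. The tubulin tubb3 went the other way at its best probe, at -0.60 ± 0.27 (adjusted p = 0.33). TEF1 itself gave 0.72 ± 0.20 (adjusted p = 0.075) and was called in 1 of 17 alternatives.

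Among LOC symbols higher in 6R, LOC543422 differed most of those without overlap. Its levels under Al were 7.18, 7.50 and 7.67 in 3R and 9.60, 9.60 and 9.27 in 6R, with 7.77, 7.98 and 8.19 in CS. Both 3R and CS lay below every 6R sample, with a difference between the lines of -2.04 ± 0.26 (limma adjusted p = 6.3e-04) that stayed called in all 17 alternatives. LOC543097 read 8.43, 8.73 and 8.96 in 3R and 10.29, 10.81 and 10.42 in 6R, a difference of -1.80 ± 0.34 (adjusted p = 0.0095). It rose under Al in both lines. Without 3R replicate 1, 3R replicate 2 or 6R replicate 2 the level call was lost, with adjusted p of 0.061, 0.060 and 0.062, and it held in 13 of 17 alternatives.

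LOC543362 was at the floor in 3R in both conditions, at 6.05 ± 0.08 under Al, and at 7.996 ± 0.55 in 6R (SD, n = 3). CS stood near 6R, at 8.03 ± 0.81 under Al (SD, n = 3). The difference between 3R and 6R was -1.94 ± 0.41 (limma adjusted p = 0.020), beside -2.37 without Al. Without 3R replicate 1, 3R replicate 3, 6R replicate 1 or 6R replicate 3 its adjusted p was 0.062, 0.055, 0.058 and 0.077, and the call held in 11 of 17 alternatives. A second probe of the gene gave -1.11 and was not called. LOC543216 gave -1.54 ± 0.29 (adjusted p = 0.0087), and 0.061 or 0.051 without 3R replicate 1 or 3. It held in 14 of 17 alternatives. It was the only call among the 3 probes of the gene, which gave -1.54 to -0.18.

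Among LOC symbols higher in 3R without overlap, LOC100037576 led with levels of 13.68, 14.41 and 13.15 in 3R and 13.06, 11.99 and 11.89 in 6R. The difference was 1.43 ± 0.28 (limma adjusted p = 0.013). Without 3R replicate 1 or 6R replicate 2 its adjusted p was 0.082 and 0.065, without the dye term 0.19 and with the 6 Al samples alone 0.060, so the call held in 13 of 17 alternatives. Its second probe gave -0.08. LOC543140 read 7.67, 8.37 and 7.98 in 3R and 7.01, 7.0 and 6.43 in 6R, without overlap, a difference of 1.19 ± 0.25 (adjusted p = 0.019). It was lost without 3R replicate 3, 6R replicate 2 or 6R replicate 3 (adjusted p of 0.081, 0.052 and 0.097) and held in 12 of 17 alternatives. LOC542943 gave 1.01 ± 0.23 (adjusted p = 0.029), with 1.25 on the slide of replicates 1 and 2 and 0.51 on that of replicate 3. Of its 3 probes only this 1 was called, and the smallest difference was 0.63. LOC100136989 gave 0.96 ± 0.22 (adjusted p = 0.032), beside 1.20 without Al (adjusted p = 0.017). Leaving out any replicate but 6R replicate 3 ended the call for LOC542943, with adjusted p from 0.061 to 0.14. For LOC100136989 any replicate but 6R replicate 2 did so, with adjusted p from 0.052 to 0.17. Over all alternatives these calls held in 9 and 8 of 17, with adjusted p up to 0.14 and 0.32. Larger called differences with overlapping groups, picked after their values were seen, were 2.76 ± 0.59 at LOC100136980 (adjusted p = 0.021) and 1.82 ± 0.30 at LOC606353 (adjusted p = 0.0039). The other LOC100136980 probe gave 0.14 and was not called. LOC100038340, also picked after its values were seen, was called higher in 3R at 2 of its 3 probes, where 3.58% of all rows were called. Its probes gave differences of 0.92 to 1.49. The alternatives were not counted for the calls of LOC100136980, LOC606353 and LOC100038340.

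Lists that mark other tissues or cell states held no call, where 3.58% of all rows were called. The summed level of 32 photosynthesis probes ranged over 15.05 to 15.68 in 3R and 14.87 to 16.07 in 6R under Al (log2), and that of 31 seed storage probes over 11.18 to 11.39 and 11.09 to 11.25. Most of the seed probes were near the floor, 25 to 26 in 3R and 23 to 27 in 6R. The 9 histone and cell division probes summed to 14.64 to 15.55 in 3R and 13.36 to 15.33 in 6R. No list of root markers was used, so the labelled tissue was checked only against these. In whole root tips, fewer cells of a type and less RNA per cell cannot be told apart. The remaining lists, of defence, peroxidase, lignin, proton pump and transcription factor genes, had 0 calls among 9, 4, 2, 6 and 4 probes. The lists of organic acid transporters and of kinases had no probe.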

How the data were processed

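The deposited values are log2 intensities of single dye channels, and the submitters' processing notes name limma. How background was corrected and how arrays were normalized is not given in the sources used here. Per the labels, the Al and control sample of a replicate shared 1 of 9 arrays in Cy3 and Hyper 5. Each Al group held 2 Cy3 samples and 1 Hyper 5 sample. Sorted values differed by at most 0.0064 between samples of 3R, and by up to 0.18 between 3R and 6R, so the lines were compared on separate scales. Replicates of 3R under Al correlated at 0.962 to 0.979 and those of 6R at 0.949 to 0.963 over rows. No columns were identical. Array numbers limit the precision, and no detection call was used.

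Levels were fitted with limma 3.58.1 in R 4.3.3 on all 18 samples, with a mean for each of 6 groups, dye as a fixed term and array as random (consensus correlation 0.625, 11 residual degrees of freedom). Responses were fitted on the 9 within-array log2 ratios with a dye term. Adjusted p-values are Benjamini-Hochberg over all 45220 rows, called under 0.05. All adjusted p-values printed are limma's. The smallest exact two-sided p of 3 samples against 3 is 0.1. The level fit was tested on simulated data.

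Names came from the platform annotation, updated through RefSeq for the IWGSC CS RefSeq assembly. Other names are given only where that table lists them. Named were, in each direction, up to 12 genes with a descriptive symbol and 4 LOC genes past the threshold without overlap. Where fewer than 5 descriptive genes passed, the 5 of smallest p were named, with up to 2 unnamed rows. Of each list, up to 4 members of smallest p could be named. Comparisons, lists and tests were chosen with earlier results of these data known. List members were assigned by hand after the annotation and the called probes had been seen, and SH6.2 was added to its list last. Alternatives were other scalings, filters, terms and blocks, and leaving out each sample.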

Additional observations from a re-analysis of the deposited data

Results flagged for a closer look

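The response to Al differed between 3R and 6R by the test of the difference itself in 492 rows. This count ranged from 86 to 511 when single replicates were left out. It was 86 without 3R replicate 1, 93 without 3R replicate 3, 229 without 3R replicate 2, 200 without 6R replicate 1 and 216 without 6R replicate 2. Among the named genes, TaGlu1a gave a response difference, 3R minus 6R, of 2.24 ± 0.26 (SE; limma adjusted p = 0.012), since its level fell by 2.01 in 3R and fell by 4.25 in 6R. This call held in 6 of 8 alternatives of the response fit and was lost without 3R replicate 1 or 6R replicate 2, with adjusted p up to 0.079. LOC543140 gave 1.08 ± 0.15 (adjusted p = 0.021), with responses of -1.51 in 3R and -2.59 in 6R, and held in 3 of 8. With single replicates left out its adjusted p was 0.034 to 0.11, and it held without 3R replicate 2 or 6R replicate 3. LOC543097 gave -1.54 ± 0.26 (adjusted p = 0.043), with responses of 1.92 and 3.47. It held in 1 of 8, without 6R replicate 3, with adjusted p up to 0.20 when other replicates were left out. The unnamed row 11540 gave 2.96 ± 0.23 (adjusted p = 0.0035) and held in all 8. Its levels under Al were 13.00, 11.91 and 12.44 in 3R and 7.42, 7.70 and 7.27 in 6R, the largest difference towards 3R among called rows at 4.98, and CS was at 7.01 ± 0.52 (SD, n = 3).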

How the results depend on the processing

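No called row changed sign under other scalings, where the shifts were small beside most called differences, or with a replicate left out. The other alternatives leave each estimate as it was, so no sign could change there. These were other terms and blocks, an intensity trend, the 6 Al samples alone, and dim rows left out (1603 of the rows still tested). The 1617 calls fell to 382 (78 higher in 3R, 304 higher in 6R) with the 6 Al samples alone, which leave 3 residual degrees of freedom, and to 998 (209 and 789) without the dye term. Quantile normalization across the 12 samples of 3R and 6R gave 748 rows higher in 6R, and centring on medians gave 593 higher in 3R. The cause was not tested. With single replicates left out the calls ranged from 876 (without 3R replicate 1) to 1287, with 941 without 3R replicate 3. Rows higher in 3R ranged from 202 to 337 (202, 214 and 233 without 3R replicate 1, 3R replicate 3 and 6R replicate 2), and rows higher in 6R from 674 to 950 (674 and 727 without 3R replicate 1 and 3). The calls without Al ranged from 335 to 461 (340 and 335 without 3R replicate 1 and 3), and the response differences from 86 to 511. The deviations of same-numbered Al samples of 3R and 6R had correlations of -0.34, -0.22 and 0.31. Of the 3 3R samples, 1 correlated best with its own number. Al samples 1 and 2 carry the other dye in 6R than in 3R, and each line has 3 samples. These values therefore cannot decide whether the titles' numbers pair them. With dye effects removed the correlations were -0.02, -0.10 and 0.05. By the numbers in the scanner file names, where those of 6R are exchanged, they were 0.06, 0.66 and 0.31, and -0.02, 0.24 and 0.05 with dye effects removed. With the replicate block, 2019 rows were called and the response differences fell to 206. A block by the numbers in the scanner file names gave 2219 calls. The probes called in the gene lists numbered 4, and 2 after the quantile normalization across all samples. Other counts stayed within 1.5 times: 1389 calls without the array block, 1785 with a slide block, 1550 with an intensity trend and 1272 with dim rows left out. Few calls could be made at the floor, where 0.0637% of the rows with a mean under 6.3 were called.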

Other observations

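Some genes of the lists had a called difference of responses to Al between the lines without a called difference in level. The alpha-amylase gene amy1, whose product breaks down starch, had called response differences in 2 of its 3 probes, where 1.09% of all rows were called. They were 1.37 (limma adjusted p = 0.042) and 1.11 (adjusted p = 0.035). The gene lay at 7.19 in 3R and 6.39 in 6R under Al at the first of these probes. The peroxidase gene Prx113-F gave a response difference of 2.05 (adjusted p = 0.0499), with responses of -1.33 in 3R and -3.38 in 6R and levels under Al of 9.92 and 8.03. It was called in 0 of 8 alternatives of the response fit, with adjusted p from 0.079 to 0.22 when single replicates were left out. Glc1, placed in the defence list, gave -0.95 (adjusted p = 0.028), with responses of 1.10 in 3R and 2.05 in 6R, and was called in 3 of 8 alternatives. Each amy1 probe was called in 2 of 8.

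The share of rows called depended on brightness. It was 5.82% at mean levels from 6.3 to 7, 7.23% from 7 to 8, 6.46% from 8 to 10, 4.91% from 10 to 12 and 3.14% above 12. In the brightest of these ranges, 55 rows were higher in 3R and 48 higher in 6R.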
